A study of Mus musculus with 12 samples.

Results

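The regions described here are stretches of mouse chromatin that had no peak in resting macrophages, a peak in every library after 6 h of lipopolysaccharide (LPS) and a peak in only some libraries at 2 h. Peaks of all 12 deposited lists were chained into regions wherever they overlapped by at least 1 bp. The members were chosen by their peak calls: autosomal regions called in 0 of 4 libraries at 0 h, in 1 to 3 of 4 at 2 h and in 4 of 4 at 6 h. The rule found 2431 of 112047 autosomal regions, out of 115231 in all. They made up 39.2% of the 6198 autosomal regions gained by 6 h, a class that held 5.53% of autosomal regions. The time course and the presence of calls are therefore properties of the rule and not results. The rule also bears on peak strength, since a region missed by some libraries at 2 h tends to lie near the calling limit there and one called by all at 6 h to lie above it. It does not name which of the 4 libraries called a member at 2 h, nor where a member lay.

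The libraries are ATAC-seq of bone marrow-derived macrophages of female mice on the C57BL/6 background, either wild type (WT) or lacking lincRNA-EPS, a long noncoding RNA (knockout, KO). Marrow cells had been cultured for 9 days with 20% L929 supplement, and LPS was given at 100 ng/ml for 0, 2 or 6 h, with 2 libraries for each genotype and time and 50000 cells in each reaction. The labels do not name separate animals or cultures for the 2 libraries of a group, nor how the knockout allele was made. The peak names inside the lists labelled 2 h give 1 h, so the middle time may be 1 h; the labels are followed here.

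ATAC-seq marks DNA that the Tn5 transposase can reach, mostly promoters and enhancers freed of nucleosomes. LPS is sensed by the receptor TLR4, which signals to NF-kB and AP-1 factors and, through interferon made by the cells themselves, to IRF and STAT factors. These act largely at enhancers that the myeloid factor PU.1 has already opened, and prolonged stimulation also opens sites that were closed at rest. LincRNA-EPS is known as a nuclear RNA that restrains immune response genes in macrophages and whose level falls after stimulation. Gene annotation and sequence of mm9, the build of the lists, were not used here, so members are given by position alone, and neither macrophage marker genes nor the deleted locus were checked.

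The lists at 2 h held 70387 to 77100 peaks. Background coverage, a measure of depth recovered from the peak values, was 3.03 reads in WT replicate 1, 2.32 in WT replicate 2, 2.79 in KO replicate 1 and 3.04 in KO replicate 2. At 0 h it was 2.35 and 2.51 in WT and 1.77 and 1.43 in KO. The KO libraries at rest were thus the shallowest of the 12. Only thinning bore on the part of this in the results, since leaving a library out does not make depths equal. At 6 h it ran from 2.17 to 3.35. At background, a summit needed 8 to 12 reads to be called, depending on the library.

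KO libraries called more of the members at 2 h than WT libraries did. WT replicate 1 called 1131 of the 2431 members and WT replicate 2 called 814. KO replicate 1 called 1166 and KO replicate 2 called 1238. The genotypes thus did not overlap, with 972.5 ± 224 members in WT and 1202 ± 50.9 in KO (mean ± SD, n = 2), but WT replicate 1 lay closer to the KO libraries than to its own replicate. The difference of 229.5 members per library was 71 without WT replicate 2 and 389 without WT replicate 1, and 2 libraries against 2 cannot give a two-sided exact permutation p below 0.333. In bulk samples, fewer cells with an open site and less opening per cell cannot be told apart.

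The excess was not matched by the libraries' totals. WT replicate 1 called the most autosomal regions at 2 h, 73144, against 70140 in KO replicate 2, 68207 in KO replicate 1 and 66124 in WT replicate 2. Members were 1.71% and 1.77% of the regions called by the KO libraries and 1.55% and 1.23% of those called by the WT libraries. WT replicate 1 and KO replicate 2 had nearly the same background coverage: of the members that only one of them called, 763 belonged to KO replicate 2 and 656 to WT replicate 1. Among the other autosomal regions called in 1 to 3 libraries at 2 h, the same 2 libraries stood the other way, with 6628 for KO replicate 2 and 9739 for WT replicate 1.

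**Figure D1:**
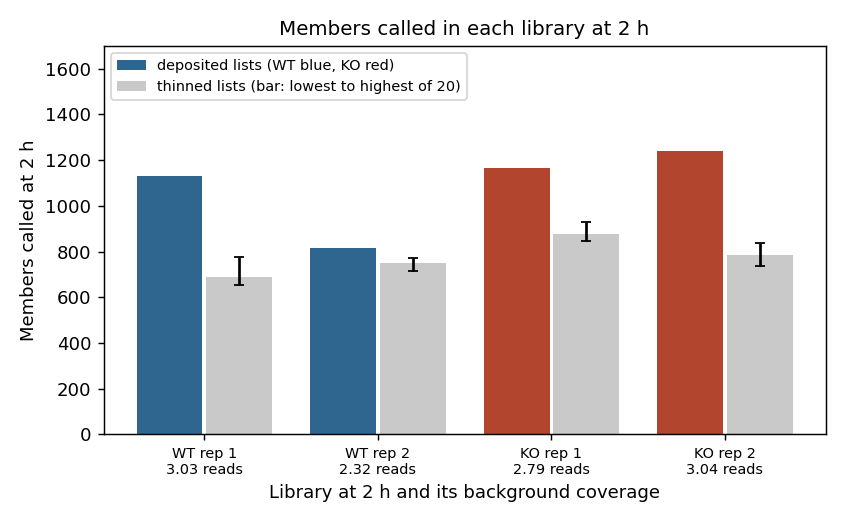
Number of members called in each of the 4 libraries at 2 h (y axis), in the deposited lists (coloured bars) and after thinning to the lowest depth among the 12 (grey bars, with the lowest and highest of 20 thinnings). The x axis names each library and its background coverage in reads; the 4 coloured bars stand at 1131, 814, 1166 and 1238.

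A lone library called 1101 members (45.3%) at 2 h, 2 libraries called 742 (30.5%) and 3 called 588 (24.2%). These shares were near those of the 28767 other autosomal regions called in 1 to 3 libraries at 2 h, at 45.9%, 27.0% and 27.1%. Of the 1101, WT replicate 1 called 325, WT replicate 2 173, KO replicate 1 276 and KO replicate 2 327. Members called in more KO than WT libraries numbered 1169 (48.1%), those called in more WT than KO libraries 802 (33.0%), and 460 (18.9%) were called in 1 library of each genotype. Among the 28767 other regions the order was opposite, 39.0% with more KO and 43.0% with more WT libraries. Such partial calling was common, at 27.8% of autosomal regions.

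The 2 KO libraries agreed on members more often than the WT libraries did. Both KO libraries and no WT library called 187 members (7.69%), and both WT libraries and no KO library called 95 (3.91%). The same patterns held 4.12% and 4.87% of the other regions partly called at 2 h, and 1.22% and 1.34% of all autosomal regions. Counting also members that another library called, the KO replicates shared 566 members (23.3%) and the WT replicates 304 (12.5%), against 17.7% and 18.4% of the other partly called regions. WT replicate 1 shared 19.0% and 19.5% of members with KO replicates 1 and 2, against 21.4% and 24.3% of the other regions. WT replicate 2 shared 14.2% and 14.6% with them, against 12.3% and 14.1%. All these shares of members were above the 12.5% of the WT replicates. The KO libraries called more members to begin with, and no allowance for that was made here. Both KO libraries with WT replicate 1 called 225 members (9.26%), close to the 9.80% of the other regions, and with WT replicate 2 they called 154 (6.33% against 3.74%). Both WT libraries called 104 members with KO replicate 1 (4.28% against 6.15%) and 105 with KO replicate 2 (4.32% against 7.37%). On every one of the 19 autosomes, more members leaned to KO than to WT, from 55 against 53 on chromosome 7 to 117 against 60 on chromosome 2. The autosomes were scored by the same 4 libraries and are not replicates. Other partly called regions were not split by chromosome.

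Leaving out a library at 2 h changed the counts of the genotype pairs by over 1.5 times, since 1 call is then enough on the side with a missing library, while 2 are needed on the other; the 2 sides are not comparable there. Members called in KO alone and in WT alone then numbered 413 and 268 without WT replicate 1 and 341 and 420 without WT replicate 2. They numbered 514 and 199 without KO replicate 1, and 463 and 201 without KO replicate 2. Other partly called autosomal regions had 4015 and 3500, 2263 and 6422, 4700 and 3176, and 3834 and 3529 in the same order.

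**Figure D2:**
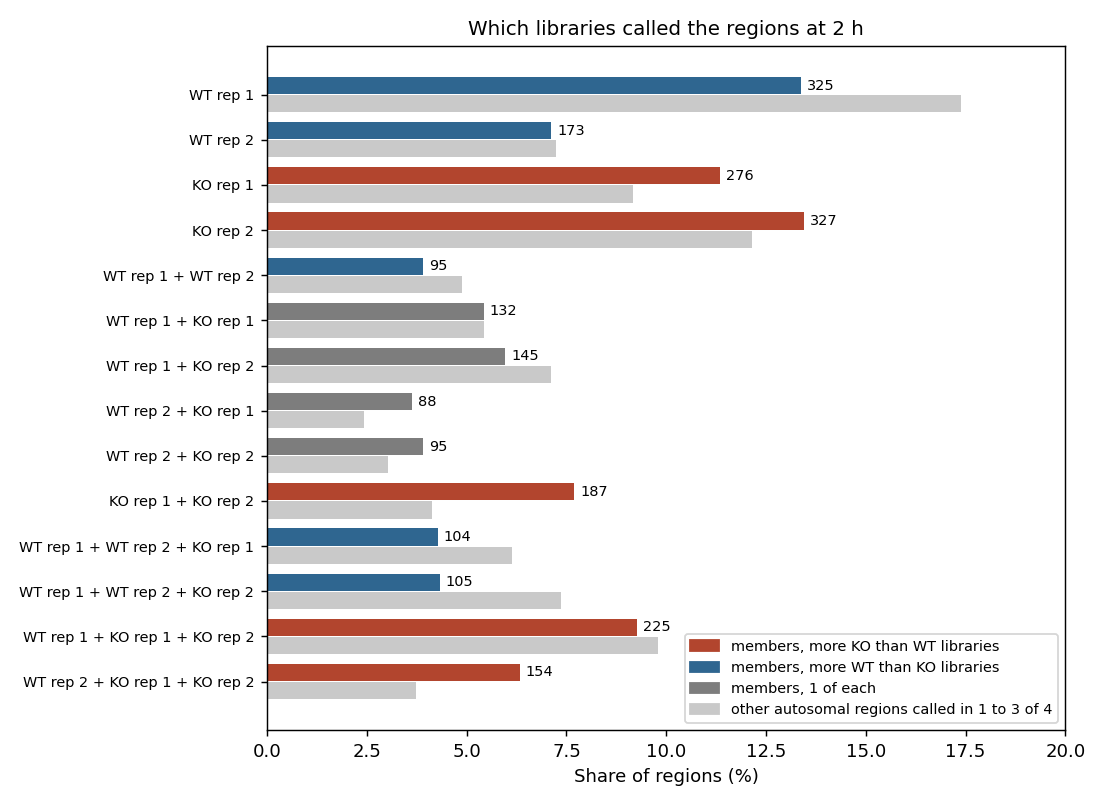
Share of regions (x axis, percent) for each of the 14 sets of libraries that can call a partly called region at 2 h (y axis). Coloured bars are the 2431 members, with their number beside the bar, and grey bars the 28767 other partly called autosomal regions; the set of both KO libraries holds 7.69% of members against 4.12% of the others.

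The lean to KO went with the combination of calls at 0 and 6 h that defines the members. Among regions called in 0 of 4 libraries at 0 h and partly at 2 h, those called in 0 of 4 at 6 h were called by both KO libraries alone in 141 cases and by both WT libraries alone in 153. With 1, 2 and 3 libraries at 6 h, the KO and WT counts were 120 and 102, 85 and 87, and 96 and 80. Members, with all 4 at 6 h, had 187 and 95. Holding the 6 h calls at 4 of 4 and letting the calls at 0 h go from 1 to 4 libraries, the counts were 120 and 103, 92 and 115, 47 and 57, and 13 and 15. The KO count exceeded the WT count most among members, and these sets are separate regions of the same 12 libraries, so the comparison has no test.

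**Figure D3:**
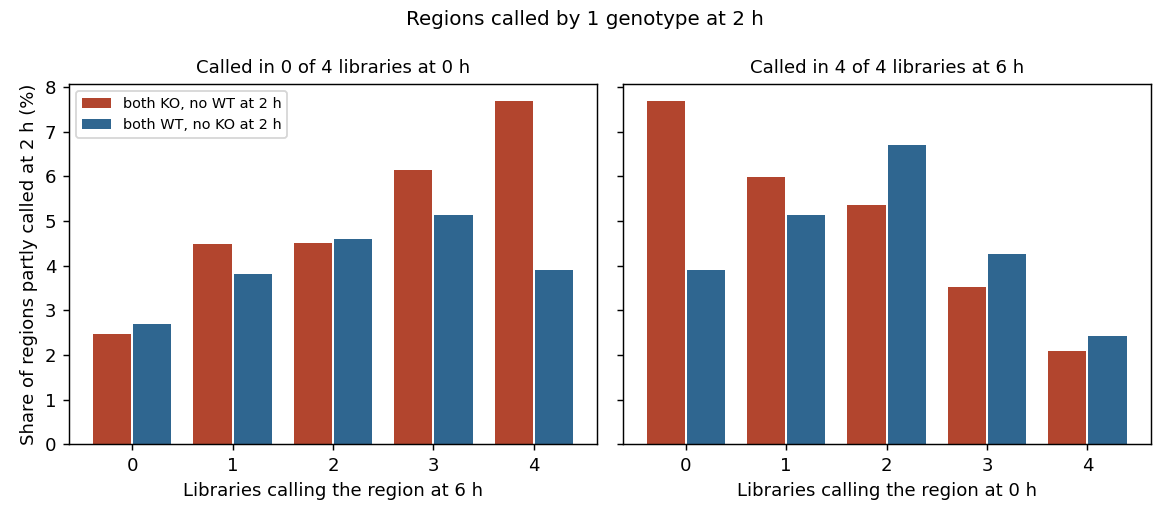
Share of regions partly called at 2 h (y axis, percent) that both KO libraries and no WT library (red) or both WT libraries and no KO library (blue) called. On the left, regions called in 0 of 4 libraries at 0 h, by the number of libraries calling them at 6 h; on the right, regions called in 4 of 4 at 6 h, by the number calling them at 0 h. The members are the last group on the left and the first on the right, at 7.69% and 3.91%.

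Differences in depth bear on such counts, so the lists were also reduced to the background coverage of KO replicate 2 at 0 h, the lowest of all, and the rule applied anew. It then found 1788 regions, 133 of them called by both KO libraries alone and 76 by both WT libraries alone, while the other partly called regions had 1087 and 1767. Over 20 thinnings, the KO-only count was 111 to 137 and the WT-only count 67 to 96. WT replicate 1 called 690 of the 1788, WT replicate 2 751, KO replicate 1 879 and KO replicate 2 786, a difference of 112 per library. KO replicate 2 then stood close to WT replicate 2, at 738 to 839 and 714 to 774 members over the thinnings, and called more than it in 19 of 20. The other 3 pairs of a KO and a WT library had the KO library higher in 20 of 20; the thinnings redraw the same libraries and are not replicates. Of the 2431 members, 1316 (54.1%) overlapped a member of the thinned lists, which was 73.6% of the latter.

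Where members were called at 2 h, their peaks were weak, as those of partly called regions were in general. Strength is given as a percentile, the place of a peak by −log10 q within its own list, from 0 for the weakest to 100 for the strongest. The median member stood at 14.03 in WT replicate 1, 11.54 in WT replicate 2, 14.6 in KO replicate 1 and 14.2 in KO replicate 2. Other partly called regions stood at 16.8, 13.99, 14.6 and 15.1 in the same order, level with members in KO replicate 1 and slightly above them in the other 3 lists. Between 74.8% (KO replicate 1) and 85.5% (WT replicate 2) of the called members lay in the lowest 25% of the list, against 72.7% to 79.9% of the other partly called regions, and at most 0.69% at or above the middle of it. Median summit coverage was 17 to 20 reads, where 10 or 11 reads sufficed for a call at background. Between 23.8% and 34.8% of the called members lay within 5 reads of that number. A member that a library did not call may therefore be open there below the calling limit.

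At 6 h members were spread over most of the list. The median percentile was 35.4 and 37.9 in the WT libraries and 43.3 and 35.3 in the KO libraries, 37.9 ± 3.75 over all 4 (SD, n = 4). Median summit coverage was 23 to 34 reads, highest in KO replicate 1, which was also the deepest library. Peaks were 258 ± 7.3 bp wide at 2 h and 376 ± 22 bp at 6 h (median per library, mean ± SD, n = 4); percentiles and widths of the 2 times come from lists of different length and depth, and their differences were not tested.

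Among members, rank at 6 h differed little with the number of callers at 2 h. The mean percentile over the 4 lists at 6 h had a median of 33.7 for members called in 1 library at 2 h, 36.3 for 2 and 38.5 for 3. Gained regions outside the rule had 33.9 for the 3244 called in 0 of 4 libraries at 2 h, level with members of 1 caller, and 46.2 for the 523 called in 4 of 4. Just outside the rule on the other sides, 2003 regions called in 1 of 4 libraries at 0 h had a median of 32.6, and 1561 called in 3 of 4 at 6 h had 20.7 in the libraries that called them.

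Members called at 2 h by both KO libraries ranked higher at 6 h than those called by both WT libraries, in WT as well as in KO lists. Members called by both KO libraries alone had median percentiles of 37.1 and 43.3 in the WT lists at 6 h and 49.9 and 44.1 in the KO lists. Those called by both WT libraries alone stood lower in each list, at 32.8 and 36.2 in WT and 40.5 and 27.1 in KO. The gap was widest in KO replicate 2 and narrowest in WT replicate 1. Members called by both KO and 1 WT library had a median of 42.5 for the mean over the 4 lists, against 34.3 for those called by both WT and 1 KO library. A lone KO caller, the largest class with 603 members, went with 35.2 and a lone WT caller with 32.8. The median over all members was 35.8. The quartiles of these classes overlapped widely, for example 29.0 to 59.9 for both KO alone and 24.5 to 46.1 for both WT alone.

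**Figure D4:**
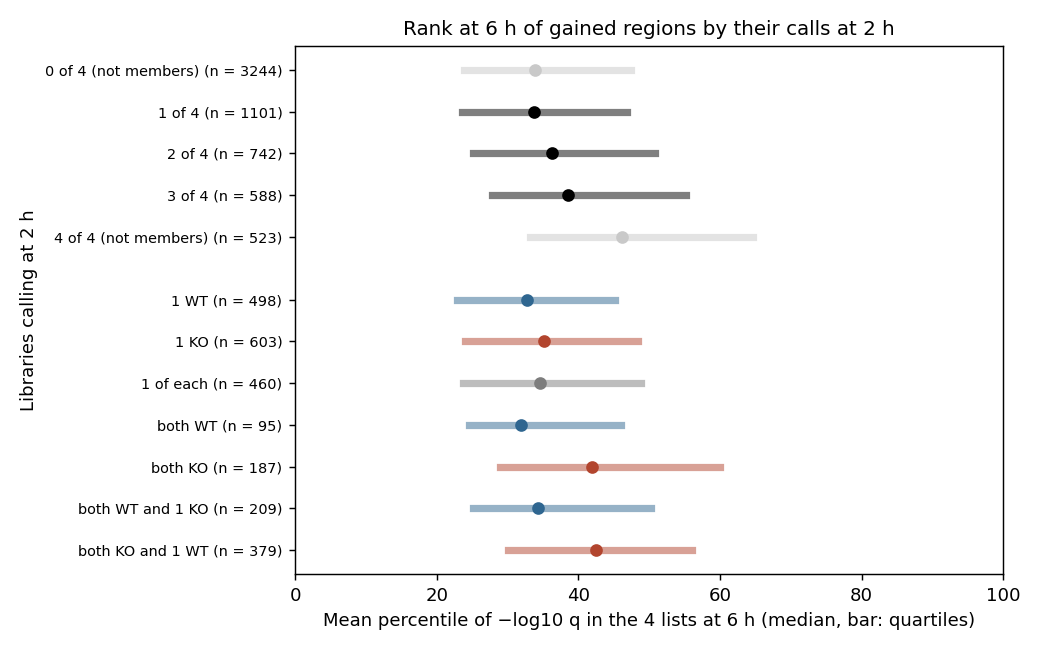
Mean percentile of −log10 q over the 4 lists at 6 h (x axis; point: median, bar: lower to upper quartile) for gained regions by the libraries that called them at 2 h (y axis, with the number of regions). Both classes with 2 KO callers have medians of 42.0 and 42.5, and both classes with 2 WT callers 31.9 and 34.3.

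The strongest members at 6 h included several of these. The highest ranked lay at chr14:58102863-58103499 (637 bp) and was called at 2 h by both KO libraries alone, at percentiles of 42.3 in replicate 1 and 25.7 in replicate 2, with summits of 25 and 20 reads. At 6 h its percentiles were 95.0 and 96.6 in WT and 95.7 and 96.1 in KO, with folds over background of 15, 17.1, 14.9 and 15.9. The genotypes thus separated at 2 h by the call alone and overlapped at 6 h. A member at chr2:84351362-84352276 had the same pattern, with 27.0 and 4.9 in the KO lists at 2 h and 92.8, 95.7, 96.4 and 92.0 in WT replicates 1 and 2 and KO replicates 1 and 2 at 6 h. Its KO call at 2 h was thus weak in replicate 2.

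The other 3 named for this pattern reached mean percentiles of 90.6 ± 3.2, 90.1 ± 1.4 and 85.7 ± 5.4 at 6 h (SD, n = 4). They lay at chr11:95919527-95920247, chr7:95616874-95617753 and chr17:64941546-64942334. At 2 h they stood at 9.996 and 40.8, at 14.6 and 17.7, and at 39.7 and 13.2 in KO replicates 1 and 2. The 5 had mean folds of 10.7 to 15.7 at 6 h. In 4 of them the WT and KO percentiles at 6 h overlapped. At chr7:95616874-95617753 both KO libraries, at 92.0 and 90.1, stood slightly above both WT libraries, at 88.5 and 89.9. The folds of that region overlapped, at 12.9 and 13.7 in KO and 12.1 and 13.1 in WT.

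The members called at 2 h by both WT libraries alone ranked lower at 6 h, and came from a smaller class (95 against 187). First was chr3:152429668-152430217, at 18.1 and 26.3 in WT at 2 h and at 78.9, 80.3, 87.2 and 84.7 in WT replicates 1 and 2 and KO replicates 1 and 2 at 6 h. Here both KO percentiles at 6 h were above both WT percentiles, although no KO library had called it at 2 h. Its mean of 82.8 ± 3.8 was below that of all 5 KO-only members just named (SD, n = 4). The next were chr9:84136650-84137328 at 74.3 ± 6.05, chr3:142161995-142162472 at 72.1 ± 4.7, chr1:63460236-63460882 at 68.1 ± 16.9 and chr4:148049101-148049631 at 67.5 ± 9.6. The wide spread of the chromosome 1 region came from KO replicate 2, at 44.3 against 70.1, 73.9 and 84.0 in the other 3 lists.

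Among members called by 3 libraries at 2 h, the leading ones with both KO libraries, from a class of 379, also ranked above those with both WT libraries, from a class of 209. Both KO libraries and WT replicate 1 called chr13:111423403-111424326, at 36.8, 35.6 and 31.2, and it stood at 94.4 ± 1.55 at 6 h with a fold of 11.8 ± 0.32 (SD, n = 4). With WT replicate 2 in place of replicate 1, the KO libraries called chr3:141200999-141201675, at 94.4 ± 1.3, and chr6:15632974-15634286, at 93.3 ± 2.5. The 3 led by WT were chr8:64039908-64040895 at 85.1 ± 1.5, chr11:119275366-119276046 at 81.3 ± 4.05 and chr1:189129013-189129746 at 81.3 ± 4.0. Percentiles of WT and KO at 6 h overlapped in 4 of these 6. Both WT libraries stood above both KO libraries in the others, at 94.6 and 96.2 against 93.2 and 93.6 for chr3:141200999-141201675, and at 85.6 and 83.2 against 76.4 and 79.8 for chr1:189129013-189129746. Folds overlapped at the chromosome 3 region, at 13.6 and 15.4 in WT and 13.2 and 15.3 in KO. At the chromosome 1 region they did not, at 10.3 and 10.6 in WT and 8.6 and 9.4 in KO.

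Some members with a marginal call in 1 library at 2 h stood near the top of the lists at 6 h. At chr5:99803413-99804130 only KO replicate 1 made a call at 2 h, at percentile 3.65, and at 6 h the region stood at 92.7 ± 2.8 (SD, n = 4). At chr8:36771938-36772955 only WT replicate 2 called at 2 h, at 2.7, and the 4 lists at 6 h gave 86.4, 86.9, 86.5 and 86.7. Its spread of 0.23 was the smallest among the 27 named regions. Further regions with 1 caller were chr1:167857594-167858474 at 91.8 ± 3.1 and chr15:53374215-53375059 at 83.7 ± 6.4, both called by KO replicate 1, and chr3:21322633-21323314 at 83.6 ± 6.7 and chr18:65346437-65347156 at 83.3 ± 9.1, both called by WT replicate 2. Regions called by 1 library of each genotype were led by chr15:39103054-39103906 at 91.5 ± 2.3, chr16:49633483-49634446 at 91.3 ± 2.7 and chr7:119127742-119129125 at 88.6 ± 2.95.

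**Figure D5:**
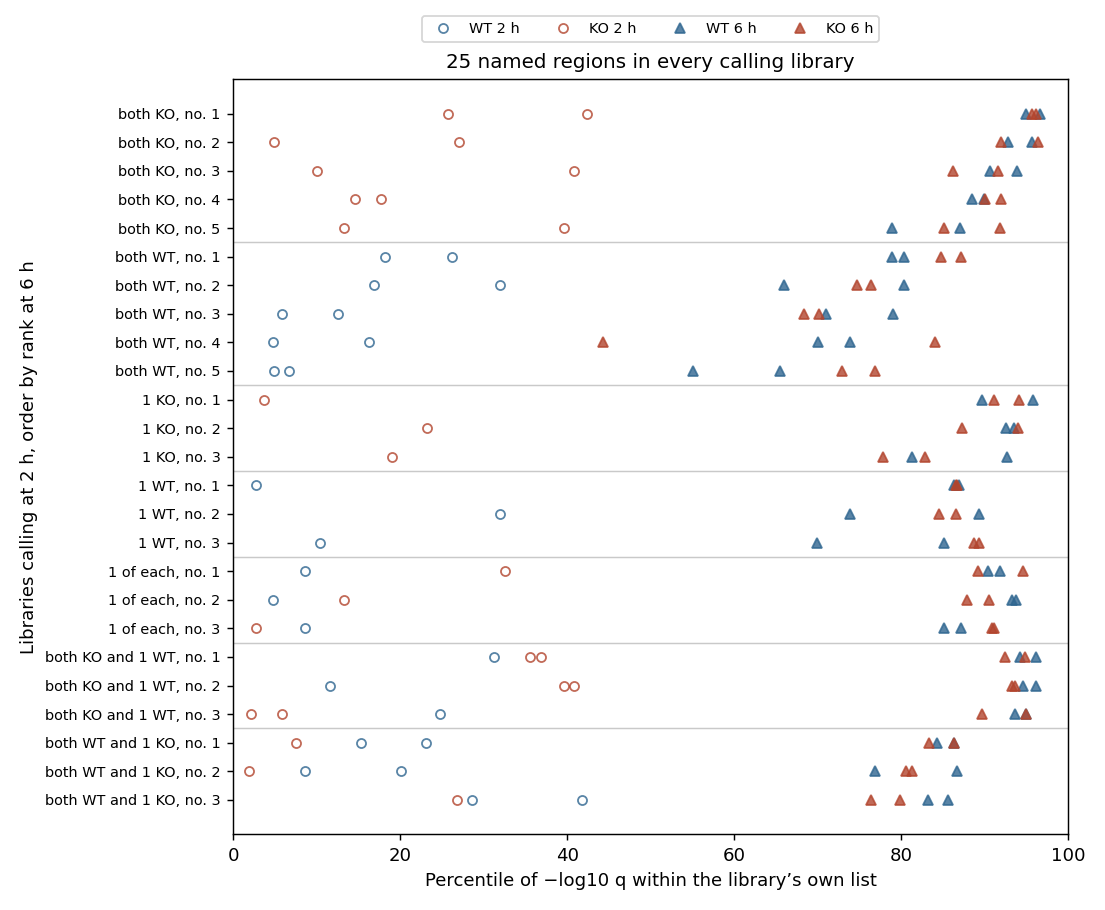
Percentile of −log10 q within its own list (x axis) for the 25 strongest members by class (y axis, named by the libraries that called them at 2 h and numbered by rank at 6 h), in every library that called them. Open circles are libraries at 2 h and filled triangles libraries at 6 h, WT in blue and KO in red; the highest circle is at 42.3 and the lowest triangle at 44.3.

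The strongest call of any member at 2 h was a KO call. It lay at chr6:144882207-144882765, at 53.0 in KO replicate 1 and 72.5 in KO replicate 2, with summits of 30 and 45 reads and folds of 8.18 and 11.4. No WT library called it at 2 h. At 6 h its percentiles were 47.1 and 54.1 in WT and 91.3 and 82.3 in KO, with folds of 6.54 and 7.88 in WT and 16.6 and 13.9 in KO, so the genotypes did not overlap at 6 h either. A region 16643.5 bp away, at chr6:144865533-144866152, was called in all 6 WT libraries and in 0 of 6 KO libraries. It was the most uneven of the neighbours, which were looked up after the member's values were seen. Nearer ones were called in 1 WT library alone or, at chr6:144888392-144888866, in 1 WT and 2 KO libraries. The member with the lowest mean percentile at 6 h, 6.0 ± 5.6 (SD, n = 4), lay at chr8:12831849-12832457 and was called at 2 h by KO replicate 2 at 15.6.

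The width of members was close to that of autosomal regions at large. Their median was 487 bp (quartiles 419 and 595), against 492 bp for all autosomal regions, 477 bp for gained regions called in 0 of 4 libraries at 2 h, 540 bp for those called in 4 of 4. Regions with a peak in each of the 12 lists had a median of 775 bp. In 2314 members (95.2%) every peak at 2 h overlapped every peak at 6 h, and 88 (3.62%) held over 1 peak in some library. Chaining by overlap favours this. The mean summit at 2 h lay a median of 39.4 bp from the mean summit at 6 h (quartiles 18.5 and 70.0). The 4 single summits at 6 h spanned a median of 106 bp. Some members shifted more, among the named ones chr1:167857594-167858474 by 429.75 bp and chr7:119127742-119129125 by 306.5 bp.

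Most members, 1963 of them, had no other member within 50 kb. The median distance from a member to the nearest region called in all 12 libraries was 9769.5 bp, and 51.0% had one within 10 kb, against 49.1% of all autosomal regions not called in every library. Another region gained by 6 h lay within 50 kb of 43.7% of members, against 37.1% of the 105849 autosomal regions that were not gained. Another member lay within 50 kb of 19.2% of members, against 18.0% of the regions that were not gained. For the other gained regions it was 23.6% (0 of 4) and 23.1% (4 of 4). Members were 1.55% (chromosome 17) to 2.61% (chromosome 6) of the regions of a chromosome.

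When members were chained over gaps of up to 50 kb, a distance chosen after the data were seen, 468 of them fell into 221 chains of 2 or more, and 2 chains held 4. One spanned chr6:99000252-99031554, with members at mean percentiles of 80.03 ± 8.3, 61.6 ± 10.8, 32.2 ± 16.5 and 13.4 ± 13.9 at 6 h (SD, n = 4). At 2 h KO replicate 1 called the first, KO replicate 2 the second and the last, and KO replicate 1 with WT replicate 1 the other. The second chain, chr3:122834060-122920023, held members at 80.8 ± 2.9, 78.3 ± 3.2, 63.5 ± 1.6 and 61.4 ± 8.6. Of these, KO replicate 1 alone called the first, both KO libraries with 1 WT library the next 2, and WT replicate 2 alone the last. In both chains more members leaned to KO than to WT, 3 against 0 and 3 against 1. Over all members, 48.1% leaned to KO and 33.0% to WT. Most of the 22 chains of 3 members also leaned to KO, as members did in general. The most uneven stood at 3 against 0, at chr10:95742779-95805532 and chr1:132911861-132989204, and at 0 against 3, at chr4:53441863-53477585.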

How the data were processed

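Open chromatin was profiled with ATAC-seq in 12 libraries, 2 for each genotype and time. Each library has its own list of peaks. The tools named, per the submitters' processing notes, are MACS2, Picard and Bowtie2 2.1.0, with the build mm9. The sources used here do not state calling settings, handling of duplicates and Tn5 offset correction. Each deposited list gives per peak a fold (a ratio of summit over background, each plus 1), a −log10 of the p-value, the same of the q-value, and a score of 10 times the −log10 q. Their sizes were used only as ranks within a list and to recover coverage.

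Whole-number summit coverage and background were solved from the fold and p, and matched the deposited p within 0.001 (log10) for 100% of the 886143 peaks. A library's lowest background served as its depth; numbers of mapped reads were not used here. For thinning, summits were drawn at the ratio to 1.43 reads and kept at a −log10 p of at least 4.28. Where a region held several peaks of a library, the one with the highest −log10 q was taken. The X chromosome (69 regions with the same calls) was left out by the rule. Pooling, scoring and coverage recovery were checked on simulated data.

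Named regions are those with the highest mean percentile at 6 h, 5 each for both KO or both WT callers and 3 for each other class, plus the highest at 2 h and the lowest at 6 h. Members, lists and rules were chosen with earlier results of these data known. The labels do not say that replicates are separate cultures. No test was made: an exact permutation test of 2 libraries against 2 cannot go below 0.333, and no model with residual degrees of freedom was fitted to the counts. Alternatives were thinning, equal list lengths, a −log10 q of at least 5, other chaining rules and leaving out each library. The 20 repeats of the thinning, the comparisons of 1 WT with 1 KO library and the chains of members were added after seeing the data, as were the shares and percentiles of other partly called regions. Thinning acts on listed summits only and cannot restore peaks below the limit. Python 3.11.15, numpy 2.4.6, pandas 2.3.3, scipy 1.17.1 and matplotlib 3.10.9 were used.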

Additional observations from a re-analysis of the deposited data

How the results depend on the processing

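In every alternative that kept all 4 libraries at 2 h, members called by both KO libraries alone outnumbered those called by both WT libraries alone. Without a library at 2 h, a lone library stands for its genotype and the 2 sides are not comparable. The KO and WT counts were then 413 and 268 without WT replicate 1 and 341 and 420 without WT replicate 2. They were 514 and 199 without KO replicate 1 and 463 and 201 without KO replicate 2. In the same order, other partly called regions had 4015 and 3500, 2263 and 6422, 4700 and 3176, and 3834 and 3529. KO libraries called more members on average than WT libraries under all 17. With each list cut to its 54771 strongest peaks, there were 776 members. Both KO libraries alone called 78 of them and both WT libraries alone 17, against 984 and 1127 of the other partly called regions. The median width was then 581.5 bp and the difference per library 135. Thinning gave a median width of 517 bp and a difference of 112 members per library, 63.5 to 140 over 20 thinnings. Chaining by a longer minimum overlap or within 100 bp gave 2434 and 2393 members, and a −log10 q of at least 5 gave 2339. With each of the 12 libraries left out in turn there were 1955 to 3076 members and a difference of 71 to 389 members per library. The median percentile at 6 h was 32.7 to 36.0 and the median width 460 to 489 bp. Where the library left out was from 0 h or 6 h, both KO libraries alone called 197 to 237 members. Both WT libraries alone then called 100 to 136. Among the other partly called regions the KO and WT counts were 1137 to 1188 and 1363 to 1399. No paired analysis was possible because the results here are counts and medians over regions given without a test, a choice of the design, and the labels do not tie equal replicate numbers to a shared animal or culture. Motif shares, planned for a genome of the build of the lists, were not run. Depth limits what a missing call means: a summit under about 10 reads at background is not listed.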
